A study of Mus musculus with 8 samples.

Results

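The activating transcription factor 4 (ATF4) stress, serine and one-carbon genes are 10 genes chosen by name, *Atf4*, *Ddit3*, *Chac1*, *Asns*, *Trib3*, *Psat1*, *Phgdh*, *Shmt2*, *Mthfd2* and *Aldh18a1*. They are 10 of the 18990 genes measured, and all 10 passed the filter on low values that left 13866 genes for testing. They were followed by RNA-seq in wild-type BL6 mouse embryonic fibroblasts (MEFs) early in their reprogramming to induced pluripotent stem cells. All cells carried the tet-STEMCCA lentivirus, which encodes OCT4, SOX2, KLF4 and c-MYC (OSKM) under the control of doxycycline, together with an rtTA lentivirus, and all received siRNA pools at 40 nM, directed against *Ncor1*, which encodes a transcriptional corepressor, or against *Oct4*. Doxycycline at 2 ug/mL was then added in reprogramming medium with a GSK3 inhibitor, an ALK5 inhibitor, ascorbic acid and LIF. RNA was collected at day 3 or day 6, which gave 4 groups (*siNcor1* day 3, *siOct4* day 3, *siNcor1* day 6 and *siOct4* day 6) of 2 libraries each, described by the study as biological replicates. Libraries from non-targeting control siRNA were not analysed here, so the knockdowns were compared with each other and day 6 with day 3. The siRNAs act only for a time, and the *Oct4* siRNA targets a mRNA that the doxycycline cassette keeps producing, which limits these groups as models of lasting loss.

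ATF4 is a transcription factor whose mRNA is present in unstressed cells and is translated more efficiently when kinases of the integrated stress response phosphorylate the initiation factor eIF2 alpha. Amino acid shortage, unfolded proteins in the endoplasmic reticulum (ER) and mitochondrial dysfunction are known to start this response. ATF4 then binds composite C/EBP-ATF elements (CARE) at genes for amino acid synthesis, transport and tRNA charging, and MYC is known to act on several of the same metabolic genes. Rapidly dividing and pluripotent cells use serine and its one-carbon units for nucleotide synthesis and methylation.

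Among the 10 genes, *Atf4* (chr15:80255184-80257541, plus strand) encodes the factor itself, *Ddit3* (chr10:127290774-127296288, plus strand) encodes the stress-induced bZIP factor CHOP, and *Trib3* (chr2:152337422-152344032, minus strand) encodes a pseudokinase induced by ATF4 and CHOP that restrains them in turn. *Chac1* (chr2:119351229-119354381, plus strand) encodes a glutathione-degrading enzyme. *Asns* (chr6:7675169-7693254, minus strand) encodes asparagine synthetase. *Phgdh* (chr3:98313170-98339990, minus strand) and *Psat1* (chr19:15904678-15947337, minus strand) encode the first 2 enzymes of serine synthesis. *Shmt2* (chr10:127517123-127522444, minus strand) and *Mthfd2* (chr6:83305691-83325908, minus strand) encode the mitochondrial enzymes that take one-carbon units from serine and oxidise them on folate. *Aldh18a1* (chr19:40550257-40588463, minus strand) encodes the enzyme that begins proline synthesis from glutamate. Positions are on mm10 and all 10 genes are annotated as protein coding.

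Promoter windows, from 250 bases before to 50 bases after the RefSeq start (GRCm38.p6), were found for all 10 genes and were searched on both strands for 2 motifs, TGATGNAA, the core of the CARE element, and CACGTG, the E-box that MYC-MAX binds. The stretches with a match are shown because they separate *Asns*, *Chac1* and *Trib3* from the other genes, and the capitals mark the motif. The CARE core occurred in the windows of those 3 genes, on the reverse strand in *Chac1* and *Trib3*, and the E-box occurred in that of *Aldh18a1*.
*Chac1* (chr2:119351023-119351082, plus strand): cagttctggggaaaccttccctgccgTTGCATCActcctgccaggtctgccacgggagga
*Trib3* (chr2:152344028-152344057, minus strand): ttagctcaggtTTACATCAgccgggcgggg
*Asns* (chr6:7693210-7693258, minus strand): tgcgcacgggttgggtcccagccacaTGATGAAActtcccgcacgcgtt
*Aldh18a1* (chr19:40588491-40588548, minus strand): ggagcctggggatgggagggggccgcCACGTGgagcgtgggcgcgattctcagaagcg
Counted from the start, the match lay at -193 to -186 in *Chac1*, at 15 to 22 in *Trib3*, at -23 to -16 in *Asns* and at -59 to -54 in *Aldh18a1*. Of 32851 RefSeq windows of this length, 3.97% held the CARE core and 7.15% held the E-box. The windows of *Atf4*, *Ddit3*, *Psat1* (which has 2), *Phgdh*, *Shmt2* and *Mthfd2* held neither of these letters, which says nothing of elements elsewhere.

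The libraries held between 7735742 and 16445192 reads on genes, recovered from the deposited log2-cpm values. *Ncor1* was 141 ± 8.29 CPM (SD, n = 2) in *siNcor1* day 3 and 235 ± 13.2 CPM in the group labelled *siOct4* day 3, a difference of 0.74 on the log2 scale (adjusted p = 0.0139), and the groups did not differ by the test at day 6. *Pou5f1*, which encodes OCT4 and is also carried by the cassette, differed by -0.076 at day 3 (adjusted p = 0.941) and was higher by 1.78 in the libraries labelled *siOct4* at day 6 (adjusted p = 0.000109), so those libraries are named here by their label. The non-coding gene *Gm26917* took 15.5% to 16.6% of the reads at day 3 and 20.3% to 29.1% at day 6. Tests used limma on the log2 values with the 4 groups fitted together and Benjamini-Hochberg adjustment at 0.05 over the 13866 genes, and "called" means past that threshold. The p-values weigh a difference against the spread between libraries within groups, pooled over the 4 groups and drawn towards that of other genes. With 2 libraries per group, that spread rests on few libraries.

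Calls divided the 10 genes at day 6, but the genes were not tested against each other. The libraries labelled *siOct4* then held more mRNA of *Atf4* and of the 5 serine, one-carbon and proline genes than the *siNcor1* libraries did. *Ddit3*, *Chac1*, *Asns* and *Trib3* were not called, although 9 of the 10 differences were positive. Uncalled *Chac1* differed by 0.99 (SE 0.51), more than called *Atf4* (0.43, SE 0.12). The other uncalled values were 0.18 for *Asns*, 0.036 for *Trib3* and -0.35 for *Ddit3*. With only the day 6 libraries fitted, *Chac1* was called (adjusted p = 0.0186 in limma) and *Atf4* was not (0.0663). At day 3 none of the 10 genes was called, against a background of 0.375% of all genes higher in the libraries labelled *siOct4* and 0.692% of them lower. At day 6, 6 of 10 were called higher and 0 lower, against 12.1% and 18.6% of all genes. From day 3 to day 6, 0 were called higher and 4 lower in *siNcor1* (background 13.8% and 20.9%), and in the libraries labelled *siOct4* 6 were called higher and 0 lower (background 22.2% and 30.5%). The interaction term of the fit, which measures how far the knockdown difference shifted from day 3 to day 6, was called positive for 6 and negative for 0 (background 7.77% and 12.9%). These comparisons share libraries, so their counts are not independent of each other. In the order just given, the median log2 fold changes of the 10 genes were -0.26, 0.67, -0.31, 0.53 and 1.13, and those of all genes tested were -0.021, -0.025, -0.068, -0.079 and 0.012. Values of the 2 knockdowns did not overlap for 7 of the 10 genes at day 3, all lower in the libraries labelled *siOct4*. At day 6 they did not overlap for 7, all higher in those libraries. Of all genes tested, 22.7% were lower without overlap and 20.7% higher at day 3 (43.4% in either direction). At day 6, 34.8% were lower without overlap and 29.9% higher (64.7% in either direction). In whole-culture RNA, a change in the share of cells of one kind and a change in mRNA per cell cannot be told apart.

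**Figure D1:**
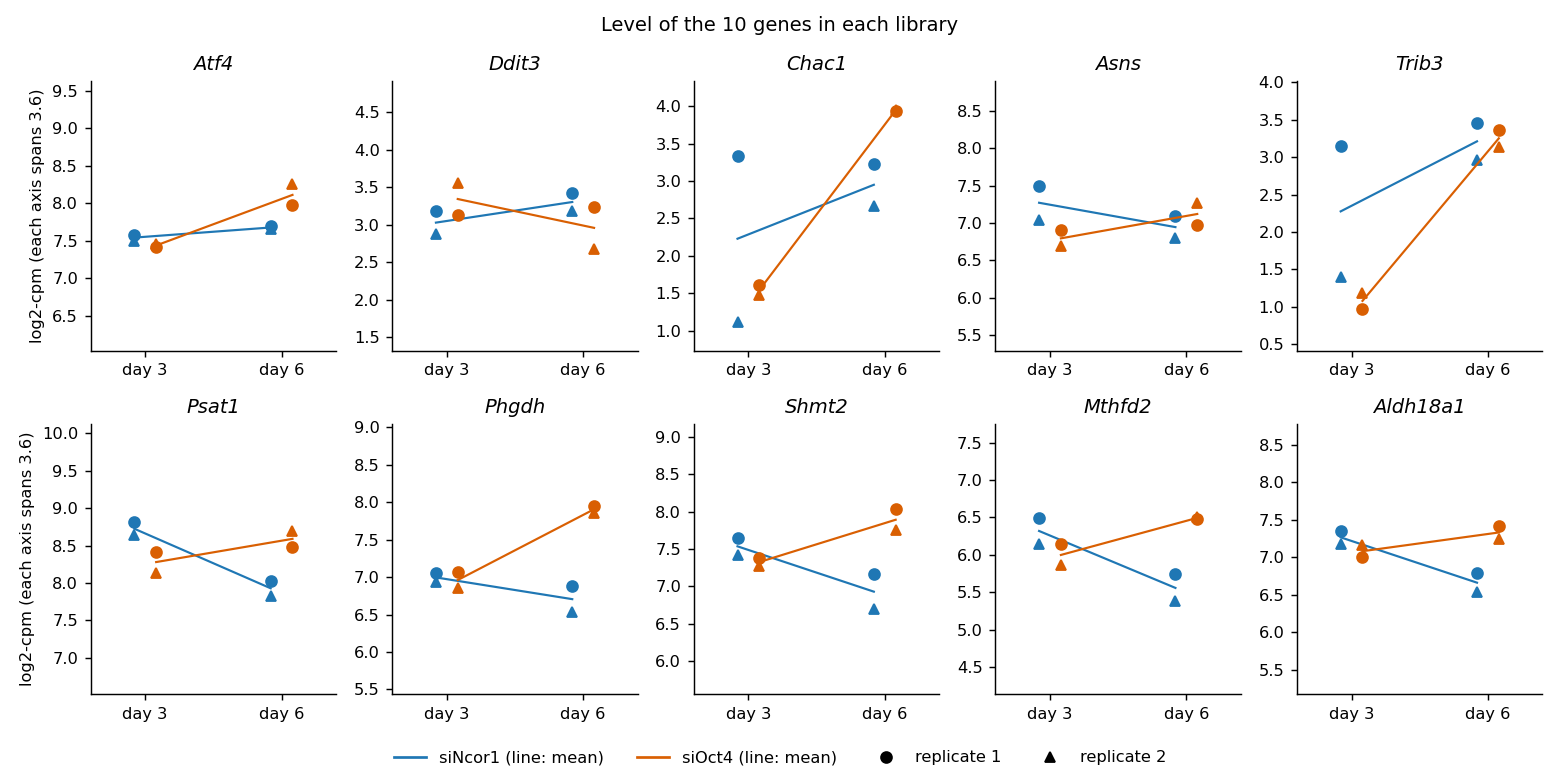
Level of each of the 10 genes (y axis, log2-cpm, each panel spanning 3.6 units) in each library at day 3 and day 6 (x axis). Circles are replicate 1, triangles replicate 2, and lines join group means of 2 libraries. The 2 *siNcor1* day 3 points of *Chac1* and *Trib3* lie far apart, by 2.22 and 1.75 on the log2 scale, whereas for *Phgdh*, *Shmt2* and *Mthfd2* both day 6 points labelled *siOct4* lie above both *siNcor1* points.

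The levels spanned a wide range. On the scale of log2 CPM per kilobase of exon, *Psat1* stood highest in *siNcor1* day 3 with a mean of 6.64, followed by *Atf4* at 6.30, *Shmt2* at 5.90, *Asns* at 5.82, *Phgdh* at 5.68, *Aldh18a1* at 5.24 and *Mthfd2* at 4.51. *Ddit3* at 2.23, *Chac1* at 1.46 and *Trib3* at 1.13 formed a low group. *Shmt2*, *Asns* and *Phgdh* were neighbours that lay closer than the SD of 0.325 between the 2 *Asns* libraries, and the same held for *Chac1* and *Trib3*, whose SDs were 1.57 and 1.24. In the group labelled *siOct4* day 6 the order was *Atf4* at 6.87, *Phgdh* at 6.59, *Psat1* at 6.50, *Shmt2* at 6.25, *Asns* at 5.67, *Aldh18a1* at 5.30, *Mthfd2* at 4.69, *Chac1* at 3.22, *Ddit3* at 2.16 and *Trib3* at 2.14. *Phgdh* thus stood at rank 5 of the 10 genes in *siNcor1* day 3 and at rank 2 in this group, where its distance to *Psat1* was less than the *Psat1* SD of 0.158.

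*Atf4* mRNA was present at similar levels in 6 libraries and higher in the last pair. It measured 192 and 180 CPM in *siNcor1* day 3, 170 and 176 CPM in *siOct4* day 3, and 208 and 201 CPM in *siNcor1* day 6. In the libraries labelled *siOct4* day 6 it measured 250 and 304 CPM, above all other libraries. The day 6 difference between the knockdowns was 0.43 on the log2 scale (SE 0.12, a 1.35-fold difference, adjusted p = 0.0215), and the rise from day 3 to day 6 in the libraries labelled *siOct4* was 0.67 (SE 0.12, adjusted p = 0.000765). In *siNcor1* the change with time was 0.14 (adjusted p = 0.42). The day 6 call was lost in a fit without the variance trend (adjusted p = 0.0618), in a fit of only the 4 day 6 libraries (0.0663) and without *siNcor1* day 6 replicate 1 (0.0817), without *siNcor1* day 6 replicate 2 (0.143) or without *siOct4* day 6 replicate 2 (0.0823), whereas the rise within *siOct4* kept its call in all alternatives.

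*Phgdh*, the entry enzyme of serine synthesis, showed the largest knockdown difference of the 10 genes at day 6. It measured 133 and 122 CPM in *siNcor1* day 3, 134 and 115 CPM in *siOct4* day 3, 117 and 92.4 CPM in *siNcor1* day 6, and 248 and 232 CPM in *siOct4* day 6. The 2 libraries labelled *siOct4* day 6 thus stood above the other 6, which lay between 92.4 and 134 CPM. The difference at day 6 was 1.2 (SE 0.14, 2.3-fold, adjusted p = 0.000357) and that at day 3 was -0.035 (95% interval -0.34 to 0.27, adjusted p = 0.969). *Phgdh* rose by 0.95 from day 3 to day 6 in the libraries labelled *siOct4* (adjusted p = 0.000165), and its change in *siNcor1* was -0.29 (adjusted p = 0.126).

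*Psat1*, the next enzyme of the same pathway, measured 449 and 399 CPM in *siNcor1* day 3, 343 and 283 CPM in *siOct4* day 3, 262 and 228 CPM in *siNcor1* day 6, and 357 and 417 CPM in *siOct4* day 6. The *siNcor1* libraries were above those of the other knockdown at day 3 and below them at day 6, without overlap at either day. Of all genes tested, 43.4% did not overlap at day 3 and 64.7% at day 6. *Psat1* fell by 0.79 with time in *siNcor1* (SE 0.14, adjusted p = 0.00171), while its change in the libraries labelled *siOct4* was 0.31 (adjusted p = 0.0909). The latter was called with quantile normalization (0.5, adjusted p = 0.00896), median centring (0.38, 0.0278), totals without *Gm26917* (0.45, 0.0135) and without *siOct4* day 6 replicate 1 (0.42, 0.0399). The knockdown difference was 0.66 at day 6 (SE 0.14, 1.58-fold, adjusted p = 0.00609) and -0.44 at day 3 (unadjusted p = 0.00981 in limma, adjusted p = 0.222).

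The mitochondrial one-carbon genes moved in opposite directions in the 2 knockdowns. *Shmt2* measured 201 and 171 CPM in *siNcor1* day 3, 167 and 154 CPM in *siOct4* day 3, 143 and 104 CPM in *siNcor1* day 6, and 261 and 214 CPM in *siOct4* day 6. *Mthfd2* measured 89.6 and 70.9 CPM, 70.3 and 58.1 CPM, 53.4 and 41.5 CPM, and 89.1 and 91.1 CPM in the same order. For both genes the day 6 libraries of the knockdowns did not overlap, as for 64.7% of all genes tested. *Shmt2* fell by 0.6 with time in *siNcor1* (adjusted p = 0.0134), and in the libraries labelled *siOct4* it rose by 0.56 (adjusted p = 0.0121). *Mthfd2* fell by 0.76 in the former (adjusted p = 0.00384) and rose by 0.49 in the latter (adjusted p = 0.0212). At day 6 *Shmt2* was higher by 0.96 (SE 0.16, 1.94-fold, adjusted p = 0.00177) and *Mthfd2* by 0.93 (SE 0.16, 1.91-fold, adjusted p = 0.00181) in the libraries labelled *siOct4*. With *Phgdh*, these were the 3 genes whose day 6 call was kept in every alternative and with every library left out in turn. Without the variance trend the fall of *Shmt2* in *siNcor1* (adjusted p = 0.0545) and the rise of *Mthfd2* in the libraries labelled *siOct4* (adjusted p = 0.0633) were not called. The fall of *Shmt2* measured -0.38 without *siNcor1* day 6 replicate 2 (adjusted p = 0.159) and -0.49 without *siNcor1* day 3 replicate 1 (adjusted p = 0.114). Without *siOct4* day 3 replicate 2 the rises in the other knockdown measured 0.5 for *Shmt2* (adjusted p = 0.0794) and 0.36 for *Mthfd2* (adjusted p = 0.175), and without *siOct4* day 6 replicate 1 that of *Shmt2* measured 0.42 (adjusted p = 0.0614). In GENCODE M21, *Shmt2* shares 32 exon bases with *Ndufa4l2* on the other strand, and whether reads were assigned by strand is not given in the sources used here.

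*Aldh18a1*, of the proline pathway, measured 163 and 145 CPM in *siNcor1* day 3, 128 and 143 CPM in *siOct4* day 3, 110 and 92.5 CPM in *siNcor1* day 6, and 172 and 151 CPM in *siOct4* day 6. The 2 *siNcor1* day 6 libraries were the lowest of the 8. The gene fell by 0.61 with time in *siNcor1* (SE 0.13, adjusted p = 0.0048), its change in the libraries labelled *siOct4* was 0.25 (adjusted p = 0.132, and called at 0.49 with quantile normalization, adjusted p = 0.0107, and at 0.39 with totals without *Gm26917*, adjusted p = 0.0261), and it was 0.67 higher in the latter at day 6 (SE 0.13, 1.59-fold, adjusted p = 0.00374). Without *siNcor1* day 6 replicate 2 the calls of *Aldh18a1* (adjusted p = 0.0622) and *Psat1* (adjusted p = 0.0806) at day 6 were lost, and so was the fall of *Aldh18a1* in *siNcor1* (adjusted p = 0.0637).

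**Figure D2:**
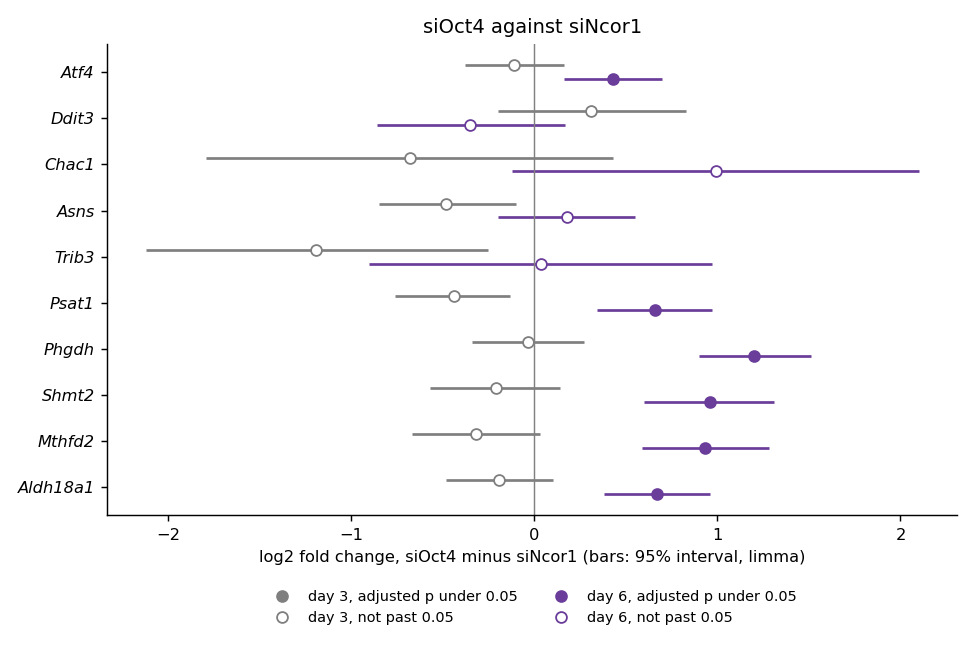
Log2 fold change of the libraries labelled *siOct4* against *siNcor1* (x axis) for each of the 10 genes (y axis) at day 3 (grey) and day 6 (purple), with 95% intervals from limma and filled points for an adjusted p under 0.05. No day 3 point is filled, and 6 day 6 points are, from 0.43 for *Atf4* to 1.2 for *Phgdh*.

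*Chac1* and *Trib3*, the low stress effectors, had unequal replicates, and of the 10 genes they rose most with time in the libraries labelled *siOct4*. *Chac1* had 161 and 35 reads (9.96 and 2.03 CPM) in *siNcor1* day 3, 43 and 21 reads (2.91 and 2.66 CPM) in *siOct4* day 3, 112 and 74 reads (9.25 and 6.22 CPM) in *siNcor1* day 6, and 144 and 180 reads (15.2 and 15.3 CPM) in *siOct4* day 6. *Trib3* had 141 and 43 reads (8.72 and 2.49 CPM), 27 and 17 reads (1.83 and 2.15 CPM), 132 and 91 reads (10.9 and 7.65 CPM), and 96 and 102 reads (10.1 and 8.66 CPM) in the same order. For both genes *siNcor1* day 3 replicate 1 was as high as the *siNcor1* day 6 libraries, and replicate 2 was near the day 3 libraries labelled *siOct4*. The day 3 difference of *Trib3* was -1.19 (SE 0.43, unadjusted p = 0.0174 in limma, adjusted p = 0.285). In the libraries labelled *siOct4* *Chac1* rose by 2.4 with time (SE 0.51, 5.27-fold, adjusted p = 0.00197) and *Trib3* by 2.16 (SE 0.43, 4.48-fold, adjusted p = 0.00128), the largest changes of the 10 genes, and both were called with each library left out in turn. In *siNcor1* the changes were 0.72 (adjusted p = 0.296) and 0.94 (adjusted p = 0.11). Without *siNcor1* day 3 replicate 1 they became 1.83 (adjusted p = 0.00358) and 1.82 (adjusted p = 0.00444), and without replicate 2 they became -0.39 and 0.066. At day 6 the knockdown difference was 0.99 for *Chac1* (95% interval -0.12 to 2.1, adjusted p = 0.159) and 0.036 for *Trib3* (95% interval -0.9 to 0.97, adjusted p = 0.957). The difference of *Chac1* was called without *siNcor1* day 3 replicate 1 (adjusted p = 0.016), without replicate 2 (0.0131) and when only the day 6 libraries were fitted (0.0186).

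The gap between the *siNcor1* day 3 replicates reached other ATF4 targets. It was 2.22 on the log2 scale for *Chac1* and 1.75 for *Trib3*, ranks 6 and 12 of 13866 genes by how far replicate 1 exceeded replicate 2. All 10 genes were higher in replicate 1, with a median gap of 0.26, against a median of 0.01 over all genes tested, of which 1.21% had a gap of more than 1 in either direction. All 10 were also higher in replicate 1 of *siNcor1* day 6, with a median gap of 0.32 against 0.02 over all genes. At day 6 replicate 1 was also higher for 14 of 16 folate genes, 10 of 11 proline and glutamate genes and 10 of 14 other ATF4 targets. The same held for 9 of 12 cytosolic tRNA synthetases, 5 of 6 mitochondrial chaperones and proteases and 7 of 12 upstream and feedback genes. Lower counts were found for 9 serine and glycine genes (4) and 18 ER chaperones and related genes (7). Of all 13866 genes tested, 7206 were higher in replicate 1 at day 3 in *siNcor1* and 7467 at day 6. Of 14 other ATF4 targets 12 were higher in replicate 1 of *siNcor1* day 3, with a median gap of 0.41. Of 12 cytosolic tRNA synthetase genes 8 were (median 0.05), and of 12 upstream and feedback genes 7 (0.13). Fewer were among 16 folate genes (4, median -0.19), 9 serine and glycine genes (4, -0.14) and 11 proline and glutamate genes (3, -0.11). The same held for 18 ER chaperones and related genes (8, -0.05) and 6 mitochondrial chaperones and proteases (0, -0.14). *Slc7a11*, the cystine transporter subunit, measured 152 and 69.6 CPM in these 2 libraries, and *Gdf15*, a secreted stress cytokine, had 275 and 138 reads. The muscle gene *Des* measured 62.3 and 29.2 CPM in them. In the 3 other groups no member of the 10 and none of the 14 other targets had a gap above 1. The libraries are described as replicates of 1 condition, and the part of depth or cell makeup in this gap was not tested.

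*Asns*, whose promoter holds the CARE core, and *Ddit3* were not called in any of the 5 comparisons. *Asns* measured 181 and 132 CPM in *siNcor1* day 3, 119 and 103 CPM in *siOct4* day 3, 136 and 111 CPM in *siNcor1* day 6, and 125 and 155 CPM in *siOct4* day 6. Its day 3 libraries did not overlap between the knockdowns, as for 43.4% of all genes tested (difference -0.48, unadjusted p = 0.0166 in limma, adjusted p = 0.28). Its day 6 libraries did overlap (0.18, 95% interval -0.2 to 0.55). Its change with time in the libraries labelled *siOct4* was 0.33 (adjusted p = 0.129), and was called with quantile normalization (0.58, adjusted p = 0.00928), with median centring (0.4, 0.0468), with totals without *Gm26917* (0.46, 0.0243) and without *siOct4* day 6 replicate 1 (0.48, 0.0461). *Ddit3* had between 74 and 144 reads in every library. It measured 8.91 and 7.25 CPM in *siNcor1* day 3, 8.60 and 11.6 CPM in *siOct4* day 3, 10.6 and 8.99 CPM in *siNcor1* day 6, and 9.30 and 6.28 CPM in *siOct4* day 6. *Ddit3* was the gene of the 10 with a positive difference at day 3 (0.31, 95% interval -0.2 to 0.83) and a negative one at day 6 (-0.35, 95% interval -0.86 to 0.17), and both intervals included 0. Its change with time in the libraries labelled *siOct4* was -0.38 (adjusted p = 0.192), and -0.66 without *siOct4* day 6 replicate 1 (adjusted p = 0.0388). The exons of *Ddit3* share 68 bases with *Mars* and 13 with *Gm4189* on the other strand and 105 with a second *Ddit3* gene model, so its count is uncertain to that extent.

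**Figure D3:**
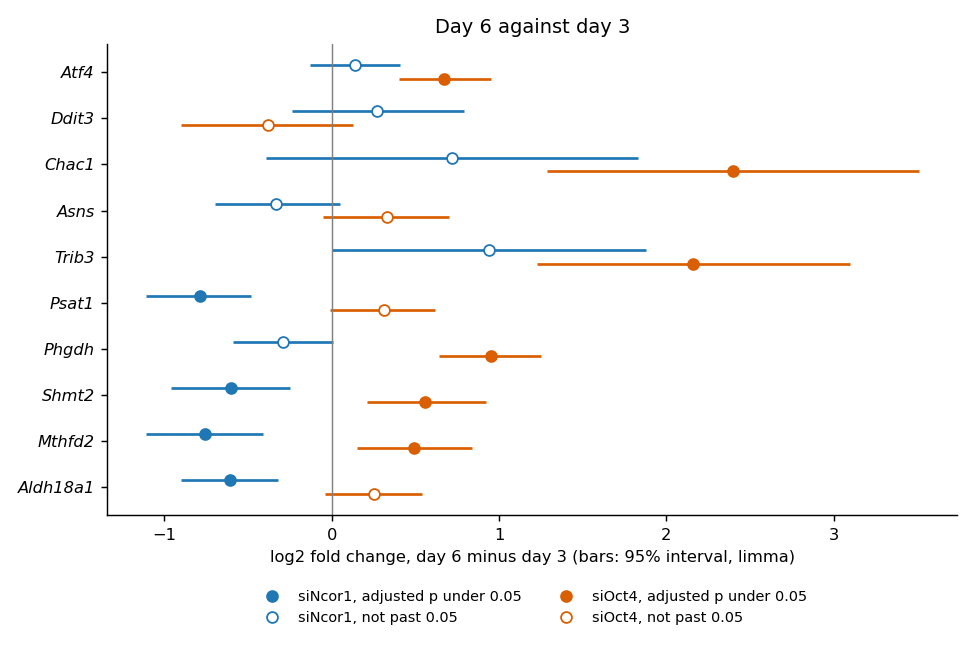
Log2 fold change of day 6 against day 3 (x axis) for each of the 10 genes (y axis) in *siNcor1* (blue) and in the libraries labelled *siOct4* (orange), with 95% intervals from limma and filled points for an adjusted p under 0.05. The 4 filled blue points (*Psat1*, *Shmt2*, *Mthfd2*, *Aldh18a1*) lie left of 0 and the 6 filled orange points lie right of it.

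The shift of the knockdown difference from day 3 to day 6 was tested directly. It was 1.25 for *Mthfd2* (SE 0.23, adjusted p = 0.00338), 1.24 for *Phgdh* (SE 0.2, adjusted p = 0.00191), 1.17 for *Shmt2* (SE 0.23, adjusted p = 0.00544) and 1.1 for *Psat1* (SE 0.2, adjusted p = 0.00381). These 4 serine and one-carbon genes kept this call in every alternative and with each library left out. For *Aldh18a1* it was 0.86 (adjusted p = 0.00934, and 0.0606 without *siNcor1* day 6 replicate 2), and for *Atf4* it was 0.54 with an adjusted p of 0.0485. The *Atf4* call was lost without the variance trend (adjusted p = 0.109), without the filter on low values (0.0646) and in 7 of the 8 fits that each left out 1 library, with adjusted p up to 0.165. For *Chac1* the shift was 1.67 (adjusted p = 0.118) and for *Trib3* 1.22 (adjusted p = 0.172), and without *siNcor1* day 3 replicate 2 they were 2.78 and 2.1. *Asns* shifted by 0.65 (SE 0.24, adjusted p = 0.0764 in limma). It was called with median centring (0.68, 0.0418), quantile normalization (0.73, 0.0354) and totals without *Gm26917* (0.71, 0.036). *Ddit3* shifted by -0.66 (SE 0.33, adjusted p = 0.181). With each library left out, the shift ranged from 0.42 to 0.88 for *Asns* and from -0.94 to -0.38 for *Ddit3*.

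Pearson correlations of log2-cpm over the 8 libraries are given as a description, since the libraries share 4 conditions and differ in depth. *Psat1*, *Shmt2*, *Mthfd2* and *Aldh18a1* correlated with each other between 0.80 and 0.95, with *Shmt2* and *Mthfd2* at 0.95. *Phgdh* correlated with *Shmt2* at 0.89, with *Mthfd2* at 0.81 and with *Chac1* at 0.63, and *Asns* with *Psat1* at 0.72 and with *Chac1* at 0.54. *Chac1* and *Trib3* correlated at 0.92, and *Trib3* with *Psat1* and with *Aldh18a1* at -0.02 each. *Atf4* correlated more closely with *Chac1* (0.83) and *Phgdh* (0.78) than with *Psat1* (0.25), and *Ddit3* correlated negatively with all 9 other genes, between -0.06 and -0.61. Among all genes tested, the closest to *Atf4* were *A630052C17Rik* (0.99), *Nudt7* (0.987) and *Rfc4* (0.984), those closest to *Phgdh* were *Hgh1* (0.991), *Timm50* (0.985) and *Tnfrsf13c* (0.98), and those closest to *Asns* were *Ppp3cc* (0.937), *Nlk* (0.936) and *Gm42820* (0.915).

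Other genes of the same pathways were counted by list, and the shares of all genes called in each comparison are the background to these counts. Upstream and feedback genes of the stress response, 12 in number, were mostly not called between the knockdowns at day 6, although the libraries labelled *siOct4* had 1 higher and 1 lower (background 12.1% and 18.6%). *Eif2ak4*, which encodes the amino acid sensing eIF2 alpha kinase GCN2, was higher by 0.39 (adjusted p = 0.0235), and *Eif2ak2*, which encodes the RNA-activated kinase PKR, was lower by 0.9 (adjusted p = 0.00369). The *Eif2ak4* call was lost without the variance trend (adjusted p = 0.0558) and with only the day 6 libraries fitted (0.0717). Its difference ranged from 0.32 to 0.46 with each library left out. With time, *Eif2ak4* fell by 0.57 in *siNcor1* (adjusted p = 0.00298), and *Nupr1*, a stress-induced cofactor, rose in both knockdowns, with a change of 1.07 in *siNcor1* (adjusted p = 0.00102) against 1.51 in the libraries labelled *siOct4* (adjusted p = 3.58e-05). In the latter *Atf3*, a stress-induced bZIP factor, rose by 1.22 (adjusted p = 0.00146) and *Eif2ak2* fell by 1.22 (adjusted p = 0.00016), among 5 genes called higher and 3 lower (background 22.2% and 30.5%).

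The 14 other ATF4 targets tested were called higher at day 6 than at day 3 in 10 cases and lower in 0 in the libraries labelled *siOct4* (background 22.2% and 30.5%), and in 6 and 2 cases in *siNcor1* (background 13.8% and 20.9%). *Cth*, which makes cysteine from cystathionine, measured 86.1 and 71.3 CPM in *siNcor1* day 3, 34.5 and 33.9 CPM in *siOct4* day 3, 139 and 119 CPM in *siNcor1* day 6, and 199 and 276 CPM in *siOct4* day 6. The groups did not overlap at either day (43.4% and 64.7% of all genes tested did not). The group labelled *siOct4* was the lower one at day 3 and the higher one at day 6. *Cth* was the 1 gene of all these lists called at day 3 (-1.19, adjusted p = 0.00673, and 0.0794, 0.0827 and 0.0585 without *siNcor1* replicate 1, *siNcor1* replicate 2 or *siOct4* replicate 2 of that day). It rose by 2.77 with time in the libraries labelled *siOct4* (adjusted p = 2.9e-07), with an interaction term of 2.06 (adjusted p = 0.000608). *Cth* also rose in *siNcor1*, by 0.71 (adjusted p = 0.00575). *Slc7a11* rose in both knockdowns, with a change of 1.68 in *siNcor1* (adjusted p = 0.00108) against 1.38 in the other (adjusted p = 0.00158). Its level at day 6 was 0.95 lower in the libraries labelled *siOct4* (adjusted p = 0.0256), a call lost without the trend (0.0917), without either *siNcor1* day 6 library (0.0574 and 0.153) and without *siOct4* day 6 replicate 1 (0.113). At day 6, 4 of the 14 targets were called higher and 2 lower (background 12.1% and 18.6%), among them *Stc2*, a secreted glycoprotein, at 0.76 (adjusted p = 0.0112) and *Vldlr*, a lipoprotein receptor, at -0.68 (adjusted p = 0.035). The *Vldlr* call was lost without the variance trend (adjusted p = 0.0789) and with only the day 6 libraries fitted (0.0505). The *Vldlr* difference ranged from -0.91 to -0.44 with each library left out. In *siNcor1* the 2 that fell were *Xpot*, the tRNA exporter, by 0.79 (adjusted p = 0.000309) and *Slc7a5*, a leucine transporter, by 0.71 (adjusted p = 0.00601), and *Gdf15* rose by 1.01 (adjusted p = 0.0157, and 0.167 without *siNcor1* day 3 replicate 2).

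Serine and glycine genes outside the 10, 9 in number, included some of the larger differences. *Psph*, the last enzyme of serine synthesis after *Phgdh* and *Psat1*, was 0.98 higher in the libraries labelled *siOct4* at day 6 (adjusted p = 0.00324), rose by 1.36 in them with time (adjusted p = 0.000119), and had an interaction term of 1.38 (adjusted p = 0.00513). *Gldc*, the glycine decarboxylase of the mitochondrial glycine cleavage system, was 1.04 higher at day 6 (adjusted p = 0.00075), rose by 2.04 (adjusted p = 1.34e-06), and had an interaction term of 1.51 (adjusted p = 0.00114). Of the 9 genes, 3 were called higher and 2 lower at day 6 (background 12.1% and 18.6%), the latter being *Amt*, another subunit of glycine cleavage, at -0.83 (adjusted p = 0.0465) and *Slc1a4*, a neutral amino acid transporter, at -0.41 (adjusted p = 0.0287). The call of *Amt* was lost without any 1 of the 4 day 6 libraries and in 3 other alternatives (adjusted p up to 0.224), and that of *Slc1a4* in 2 alternatives and without *siOct4* day 6 replicate 1 or either *siNcor1* day 6 library (up to 0.211). In *siNcor1*, *Amt* rose by 1.99 (adjusted p = 0.000452), while *Gcsh*, a further subunit, fell by 0.71 (adjusted p = 0.00555) and *Shmt1*, the cytosolic counterpart of *Shmt2*, fell by 0.59 (adjusted p = 0.0124).

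Of 16 folate one-carbon genes, 1 was called higher and 9 lower at day 6 than at day 3 in *siNcor1* (background 13.8% and 20.9%), against 2 and 2 in the libraries labelled *siOct4* (background 22.2% and 30.5%). *Gart*, of purine synthesis, fell by 0.8 in *siNcor1* (adjusted p = 0.000895), and *Mtr*, methionine synthase, changed by -1.01 in *siNcor1* (adjusted p = 0.00018) against -0.67 in the libraries labelled *siOct4* (adjusted p = 0.000905). In the latter *Tyms*, thymidylate synthase, rose by 0.63 (adjusted p = 0.00915, and 0.105 without *siOct4* day 3 replicate 2). Between the knockdowns at day 6, 6 were called higher and 2 lower (background 12.1% and 18.6%), with *Gart* at 0.75 (adjusted p = 0.00198) and *Aldh1l1*, which oxidises formyl-folate to CO2, at -1.27 (adjusted p = 0.00181). In the proline and glutamate list 4 of 11 were called higher and 0 lower at day 6, against the same background. *Pycr1*, the enzyme that completes mitochondrial proline synthesis, was 0.97 higher (adjusted p = 0.00944), as was *Prodh*, which breaks proline down, by 1.27 (adjusted p = 0.000859), and they rose by 2.04 (adjusted p = 2.78e-05) and 1.22 (adjusted p = 0.000236) with time in the libraries labelled *siOct4*.

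Of 12 cytosolic tRNA synthetase genes, 8 fell with time in *siNcor1* and 0 rose (background 20.9% and 13.8% of all genes), among them *Gars*, the glycyl enzyme, by 0.92 (adjusted p = 0.000447) and *Iars*, the isoleucyl enzyme, by 0.85 (adjusted p = 0.00029). In the libraries labelled *siOct4* 2 were called higher and 0 lower with time (background 22.2% and 30.5%). At day 6, 6 were called higher than in *siNcor1* and 0 lower (12.1% and 18.6%), with *Gars* at 0.57 (adjusted p = 0.00806) and *Yars*, the tyrosyl enzyme, at 0.47 (adjusted p = 0.0082). Of 18 ER chaperones and genes of the other arms of the unfolded protein response, 1 was called higher and 12 lower with time in the libraries labelled *siOct4* (background 22.2% and 30.5%), and 5 were not called. *Dnajc3*, a co-chaperone and inhibitor of eIF2 alpha kinases, fell by 1.02 (adjusted p = 0.000184) and *Atf6*, an ER stress sensor, by 0.93 (adjusted p = 0.000346), whereas *Sdf2l1*, an ER chaperone partner, rose by 0.84 (adjusted p = 0.000645). At day 6, 1 of the 18 was called higher and 6 lower than in *siNcor1* (12.1% and 18.6%). They included *Sdf2l1* at 0.62 (adjusted p = 0.0103 in limma), *Sel1l* at -0.56 (adjusted p = 0.00445) and *Calr* at -0.5 (adjusted p = 0.0129). In *siNcor1* 0 of the 18 were called higher and 3 lower with time, near the background of 20.9% lower. Of 6 mitochondrial chaperones and proteases, 1 was called higher at day 6, near the background of 12.1%, which was the protease subunit gene *Clpp* at 0.57 (adjusted p = 0.0111), and 3 fell in *siNcor1* (background 20.9%), with *Hspd1*, the chaperonin HSP60, by 1.29 (adjusted p = 0.000172).

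**Figure D4:**
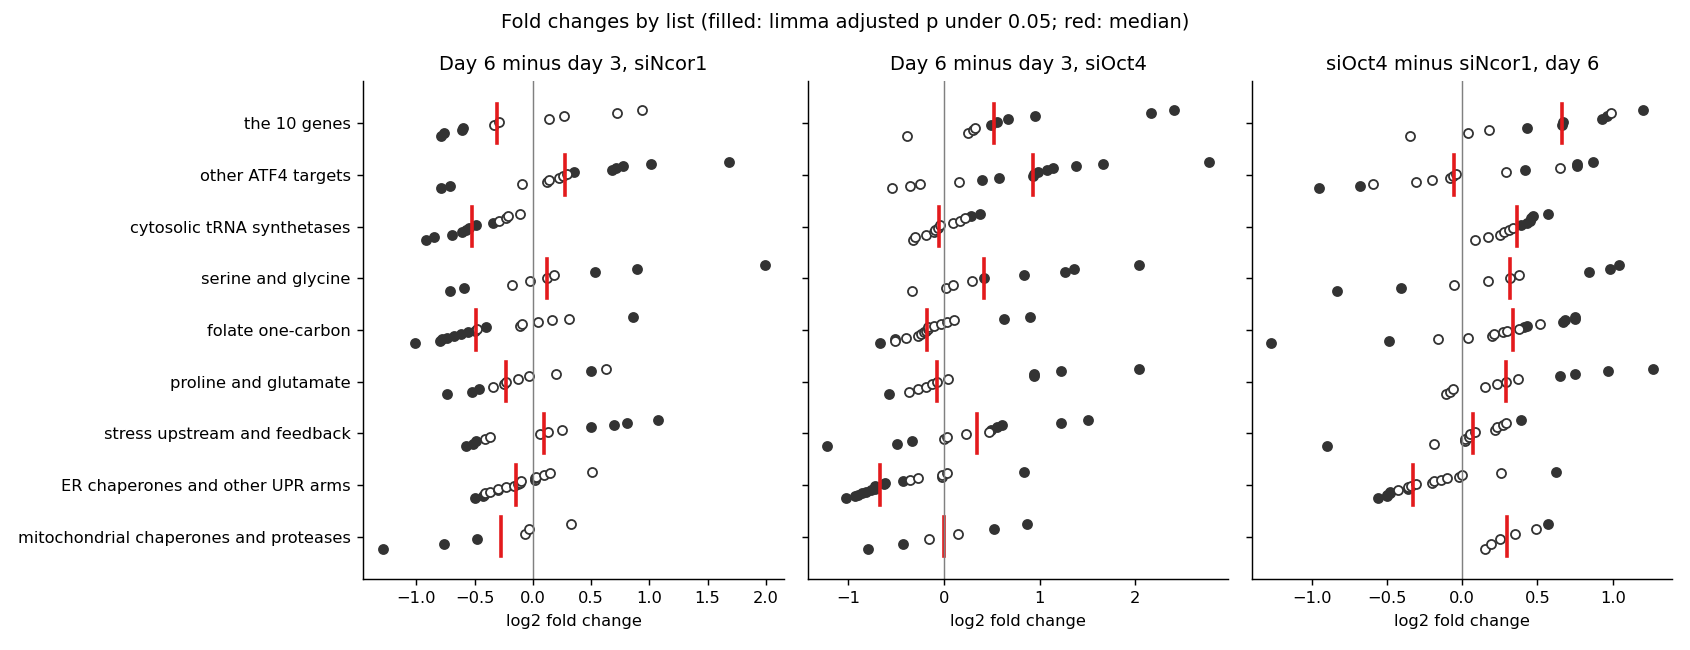
Log2 fold changes (x axis) of the 10 genes and of 8 pathway lists (rows) for day 6 against day 3 in *siNcor1*, day 6 against day 3 in the libraries labelled *siOct4*, and the knockdowns at day 6. Each point is a gene, filled for an adjusted p under 0.05 in limma, and red bars are medians. The median of the tRNA synthetases lies at -0.52 in *siNcor1*, and that of the ER chaperones at -0.67 in the libraries labelled *siOct4*.

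The counts of the lists rested in part on single libraries. Without *siNcor1* day 6 replicate 2, 1398 in place of 4251 genes were called at day 6, and 0 tRNA synthetases, 1 other ATF4 target, 2 folate genes, and 2 proline and glutamate genes were called higher and 0 ER chaperones lower. *Gldc* and *Psph* kept their calls in that fit, with 3 serine and glycine genes called higher, and 14 of 20 list genes singled out for day 6 lost theirs, against 7 without *siNcor1* day 6 replicate 1, 5 without *siOct4* day 6 replicate 1 and 1 without *siOct4* day 6 replicate 2. The ER chaperones called lower at day 6 numbered 1, 3 and 10 in those 3 fits. For the days in *siNcor1*, 1 of the other ATF4 targets was called higher without *siNcor1* day 3 replicate 2 or without *siNcor1* day 6 replicate 1, and 3 without *siNcor1* day 6 replicate 2. There 5 tRNA synthetases and 5 folate genes were called lower without *siNcor1* day 3 replicate 2 and again without *siNcor1* day 6 replicate 2, and 0 ER chaperones without any 1 of the 4 *siNcor1* libraries. Within the libraries labelled *siOct4*, the counts with each library left out were 8 to 10 higher for the other ATF4 targets and 11 to 13 lower for the ER chaperones.

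Cassette and cell type genes also differed between the groups. *Myc*, which is part of the cassette and so cannot be read as the endogenous gene alone, measured 566 and 591 CPM in *siNcor1* day 3, 536 and 580 CPM in *siOct4* day 3, 370 and 351 CPM in *siNcor1* day 6, and 1270 and 920 CPM in *siOct4* day 6. It fell by 0.68 in *siNcor1* (adjusted p = 0.00618), while the libraries labelled *siOct4* showed a rise of 0.96 (adjusted p = 0.000362) and a level 1.59 higher at day 6 (adjusted p = 0.000196). The summed level of 8 fibroblast markers was 6240 and 6350 CPM in *siNcor1* day 3, 8750 and 10300 CPM in *siOct4* day 3, 4330 and 4670 CPM in *siNcor1* day 6, and 2400 and 2460 CPM in *siOct4* day 6, with none of the 8 at 0. Its largest part was *Col1a1*, at 3810 and 3620 CPM in *siNcor1* day 3. With time in *siNcor1*, 4 of the 8 markers were called higher and 2 lower (background 13.8% and 20.9%). *Thy1*, among the former, rose by 1.14 (adjusted p = 0.000108). On day 6, 7 of the 8 were called lower in the libraries labelled *siOct4* and 0 higher (background 18.6% and 12.1%). The sum of 5 epithelial markers was 53.3 and 55.0, 15.4 and 17.3, 673 and 639, and 298 and 270 CPM in the same order, with none at 0. With time, 5 of 5 were called higher in *siNcor1* (background 13.8%) and in the libraries labelled *siOct4* (background 22.2%). Against *siNcor1*, 4 of the 5 were called lower in the latter and 0 higher at day 3 (background 0.692% and 0.375%). The same counts held at day 6 (background 18.6% and 12.1%). Macrophage markers summed to between 4.35 and 10.0 CPM, neural crest and glial markers to between 11.7 and 27.2 CPM, endothelial markers to between 16.4 and 44.3 CPM, and the muscle marker *Des* measured between 13.9 and 85.2 CPM. At most 1 gene of each of these lists was at 0 in any library. The part of these genes, or of the *Gm26917* share, in the differences of the 10 genes was not tested. Cassette level, cell makeup and siRNA differ together between the groups and cannot be told apart.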

How the data were processed

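RNA-seq was measured in 8 libraries, 2 for each of 4 groups. Per the labels and the study's methods, the authors prepared libraries from 200 ng of total RNA depleted of ribosomal RNA, aligned reads to mm10 (GRCm38) with STAR 2.5.2b and deposited log2-cpm values made with edgeR 3.20.9. The read counter is not given in the sources used here. The conversion adds a constant, and after its removal 100% of values were whole reads within 0.1 read, which gave the depth of each library, and CPM were computed from those reads and the effective library sizes. Genes with 0 reads stand at -2.87, and 3 reads amount to between 0.174 and 0.380 CPM. Intervals from limma cover the spread between libraries, which includes the counting error of low counts.

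A gene was tested where its CPM averaged 1 or more over the libraries, with limma 3.58.1 in R 4.3.3 (lmFit, then eBayes with its trend option, two-sided, Benjamini-Hochberg over 13866 genes), with 1 mean per group and the 4 groups together. Fold changes are on the deposited log2 scale, which understates those of low genes. Alternatives were no trend, median centring, quantile normalization, totals without *Gm26917*, no filter, a minimum average of 10 CPM, log2(CPM + 1), voom on the recovered reads, a replicate block, fitting the compared groups alone and leaving out each library. The scripts were tested on simulated data.

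Levels between genes were compared per kilobase of GENCODE M21 exons, matched by Ensembl identifier for 18969 genes. Replicates differed by more than counting noise in every group (chi-square per degree of freedom of 9.478 to 21.34). The 10 genes and the pathway and marker lists were chosen with earlier results of these data known. Named were the 10 genes, at most 2 genes per list and direction with the largest change among those called, the cassette and targeted genes, and the 3 genes closest by correlation to *Atf4*, *Asns* and *Phgdh*. *Slc7a11* and *Gdf15* beside the replicate gap were chosen after their values were seen, as was the table of that gap. *Fgf21* of the ATF4 targets was not in the table analysed, nor were 2 macrophage and 3 muscle markers. Some genes that this rule would name are not reported here. Figures were drawn with matplotlib 3.10.9.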

Additional observations from a re-analysis of the deposited data

Results flagged for a closer look

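For 6 of the 10 genes the difference between the knockdowns changed from day 3 to day 6 by the test of that change itself (limma interaction term, adjusted p under 0.05). All 6 changes were positive, against 7.77% of all genes called positive and 12.9% called negative. The change, on the log2 scale and as the libraries labelled *siOct4* minus *siNcor1*, was 0.54 for *Atf4*, 1.1 for *Psat1*, 1.24 for *Phgdh*, 1.17 for *Shmt2*, 1.25 for *Mthfd2* and 0.86 for *Aldh18a1*. The *Atf4* call (adjusted p = 0.0485 in limma) was lost without the variance trend (0.109) and without the filter on low values (0.0646). With each library left out, the change ranged from 0.4 to 0.68 for *Atf4* and from 0.73 to 0.98 for *Aldh18a1*. No cause was tested.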

How the results depend on the processing

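Of 875 values of the 10 genes under the alternatives, 821 kept their direction and their side of the threshold, 25 lost a call, 23 gained one and 6 changed sign, all 6 of them uncalled values with 1 library left out. With each library left out, the day 3 difference ranged from -1.79 to 0.43 for *Chac1* and from -0.14 to 0.075 for *Phgdh*, the day 6 difference of *Trib3* from -0.22 to 0.29, and the change of *Chac1* in *siNcor1* from -0.39 to 1.83. With each library left out, the number of the 10 genes called ranged from 3 to 7 at day 6, from 2 to 5 for the days in *siNcor1*, from 4 to 8 for the days in *siOct4* and from 4 to 8 for the change of the difference, and was 0 at day 3 throughout. Over all genes, 148 were called at day 3 (43 without the trend, 81 with a mean of at least 10 CPM, 3 to 375 with 1 library left out), 4251 at day 6 (1398 to 4669), 4819 for the days in *siNcor1* (2360 to 5954), 7312 in *siOct4* (5397 to 7374) and 2867 for the change of the difference (1009 to 3667). A fit that leaves out 1 library assumes that the lone library left in its group varies like the other groups.

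Scaling mattered for the days in *siOct4*, where 8 of the 10 genes were called higher with median centring and 9 with quantile normalization or totals without *Gm26917*, in place of 6. That last setting moved the median of all genes from -0.079 to 0.054 and the share of higher genes among those called from 42.1% to 52.6%, and with voom that share at day 3 went from 35.1% to 55.1%. The replicate numbers were not taken to pair the libraries, since the study's methods describe no such pairing. Deviations of same-numbered libraries correlated between -0.0395 and 0.281, the latter between the 2 day 6 groups, which does not settle whether they were paired. With a replicate block the members called were 0, 6, 4, 6 and 6 in the 5 comparisons, as without it, and all genes called 222, 4698, 5218, 7570 and 3395. The depth limits *Chac1* and *Trib3* most, with as few as 21 and 17 reads in 1 library.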
